A study of Mus musculus with 8 samples.

Results

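The TNF superfamily was examined as 48 genes: 25 receptors, 17 ligands and the 6 TRAF adaptors. Members were found by symbol in a table of ATAC-seq counts, an assay in which a transposase cuts open chromatin, so that a count is a measure of accessibility and not of RNA or protein. Of the 48 genes, 46 had at least 1 region, with 174 pairs of a gene and a region that make up 164 distinct regions of 46512 in all. Ltbr, the lymphotoxin beta receptor, and Cd70, the ligand of CD27, had none. A filter on low counts kept 162 of the 164 regions and 45709 of all regions. It left out an 81 bp region of Tnfrsf8 and the single region of Tnfsf15. The study sorted CD4 T cells from C57BL/6 mice carrying the Foxp3RFP reporter, in which a red fluorescent protein marks cells that express Foxp3, the factor that defines regulatory T cells (Tregs). There were 4 groups of 2 libraries: RFP+ Tregs from male spleen, RFP+ Tregs from male visceral adipose tissue (VAT), RFP+ Tregs from female VAT, and RFP- CD4 T cells from male VAT. No other allele or treatment was named, the ages of the mice are not given in the sources used here, and each library pooled the sorted cells of 3 mice. RFP- cells are a mixture of CD4 T cells, so that group is no single subset. Both spleen libraries were labelled male, although the design text speaks of female spleen as well. In female VAT Tregs against male spleen Tregs, tissue and sex therefore cannot be told apart.

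TNF family receptors are bound by trimeric ligands, mostly on the surface of another cell. Receptors without a death domain recruit TRAF adaptors, which lead to the NF-kB and MAP kinase pathways, whereas death receptors recruit adaptors that can activate caspases. On T cells the costimulatory members GITR (Tnfrsf18), OX40 (Tnfrsf4), 4-1BB (Tnfrsf9) and TNFR2 (Tnfrsf1b) are best known for their high surface levels on activated and tissue Tregs. Open chromatin at a gene marks promoters and enhancers in use or available for use, and enhancers can lie far from the gene they serve.

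How often regions that hold a start were called over all genes was not computed, so the following count has no share to be set against. Of 26 member regions that hold an annotated transcription start, 4 were called in any comparison: those of Tnfrsf9, Fasl, Tnfsf8 and Tnfrsf23. Starts came from a promoter table that held 38 of the 48 members, so Cd40, for example, is not among the 26. The bases before the starts of the first 3 are printed because each of those regions was called between male VAT Tregs and VAT CD4 T cells. They run 5′ to 3′ for the 250 bases upstream, from RefSeq (GRCm38.p6), at chr4:150927749-150927998 (+), chr1:161788496-161788745 (-) and chr4:63861285-63861534 (-). For Tnfrsf9 this is the second of its annotated starts. Capitals mark matches to an AP-1 motif (TGANTCA) or to the NF-kB consensus.
Tnfrsf9: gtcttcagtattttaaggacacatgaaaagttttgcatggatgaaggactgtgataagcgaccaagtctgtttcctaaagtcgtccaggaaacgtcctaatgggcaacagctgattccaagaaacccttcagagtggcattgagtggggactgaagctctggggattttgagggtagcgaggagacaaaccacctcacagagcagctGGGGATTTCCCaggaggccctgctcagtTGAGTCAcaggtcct
Fasl: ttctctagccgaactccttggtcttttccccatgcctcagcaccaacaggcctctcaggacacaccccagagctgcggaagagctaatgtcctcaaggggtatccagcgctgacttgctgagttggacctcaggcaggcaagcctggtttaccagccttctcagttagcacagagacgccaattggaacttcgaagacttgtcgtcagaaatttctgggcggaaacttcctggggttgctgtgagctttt
Tnfsf8: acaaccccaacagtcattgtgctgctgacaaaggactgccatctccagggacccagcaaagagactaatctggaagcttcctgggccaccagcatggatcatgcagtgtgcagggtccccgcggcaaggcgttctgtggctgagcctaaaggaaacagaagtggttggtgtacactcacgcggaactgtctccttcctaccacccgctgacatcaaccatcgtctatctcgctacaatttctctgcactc
The Tnfrsf9 sequence held overlapping NF-kB matches, GGGGATTTCC and GGGATTTCCC, between 43 and 33 bases before the start, and an AP-1 match, TGAGTCA, from 15 to 9 bases before it. The Fasl and Tnfsf8 sequences held neither motif, nor a Runx motif (TGTGGT). Searched on both strands over 250 bases, AP-1 matches were found in 6.75% of 32851 promoters and in 6 of 41 promoters of members (Fas, Tnfrsf8, Tnfrsf9, Tnfsf13, Tnfsf13b and Tnfsf14). NF-kB matches were found in 3.9% of all promoters and in 4 of members (Ltb, Tnfrsf8, Tnfrsf9 and Traf3), and Runx matches in 14% and 6 (Tnfrsf13c, Tnfrsf25, Tnfsf13, Traf1, Traf5 and Traf6). A match is a description of the letters, not of binding.

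Counts per library in the regions kept ran from 5722254 to 15798875. Levels are given as CPM, the count scaled to a common library total with trimmed-mean-of-M (TMM) factors between 0.907 and 1.06, and n is 2 libraries per group throughout. Male VAT 1 stood apart: regions shorter than 1000 bp held 5.55% of its counts and 3.60% to 4.37% of those of the other 7, and 77 of the 164 member regions are that short. A call in edgeR's quasi-likelihood test means a Benjamini-Hochberg adjusted p under 0.05 over all regions, ± after a log2 fold change is its approximate standard error, and ± after a CPM is the SD of 2 libraries. No label says that the 2 libraries of a group came from separate sorts, so the p-values measure only the spread between these samples. Libraries are named by group and number, as male VAT 1. A call is said to be lost where a refit without the named library, or with the named alternative, gave an adjusted p of 0.05 or more. Short-region scaling means TMM factors computed on regions under 1000 bp, which lowered the median log2 fold change of all regions by 0.10, 0.17, 0.23 and 0.07 in the order of the comparisons below. The T cell marker genes had regions at 7 of 7 genes, with summed levels of 221 to 306 CPM in male VAT, 302 to 310 in female VAT, 277 to 302 in spleen and 267 to 350 in CD4 libraries. The 5 Treg marker genes, which include the member Tnfrsf18, summed to 362 to 440 CPM in CD4 libraries and 453 to 476 in spleen. They summed to 559 to 568 CPM in female VAT and 439 to 640 in male VAT. Foxp3 and Ctla4 were lower in both CD4 libraries than in every Treg library. Ikzf2, Tnfrsf18 and Il2ra overlapped, with Il2ra at 55.1 and 63.0 CPM in CD4 libraries and 51.1 to 77.9 in Tregs. Foxp3, on chromosome X, summed to 38.3 and 40.8 CPM in the CD4 libraries. It summed to 55.2 and 65.6 CPM in spleen libraries, 85.0 and 53.5 in male VAT and 112 and 110 in female VAT. Regions of B cell markers (9 of 10 genes) summed to 421 to 437 CPM in spleen Tregs, 368 to 436 in CD4 T cells, 433 to 436 in female and 351 to 413 in male VAT Tregs. Those of myeloid markers (8 of 11) summed to 216 to 236, 195 to 234, 237 to 254 and 178 to 240 CPM in the same order, and those of CD8 and NK cells (4 of 6) to 105, 118 to 120, 107 to 115 and 102 to 114 CPM. Adipocyte markers (5 of 6) were at 77.5 to 83.4 CPM in male VAT Tregs and 97.9 to 111 CPM elsewhere, and stromal and endothelial markers (7 of 10) at 208 to 241 CPM throughout. Ms4a1, Lyz2, Csf1r, Adgre1, Cd8a, Ncr1, Lep, Pdgfrb, Dcn and Tek had no region, and the part of other cells in the results was not tested.

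Male VAT Tregs were set against 3 other groups, and female VAT Tregs against spleen Tregs. These comparisons share libraries, so their results are given side by side and not compared. The sex comparison in VAT called 4 member regions higher and 3 lower in males out of 162 tested (all regions: 2.04% higher and 1.21% lower). The tissue comparison in males called 17 higher and 4 lower in VAT (4.64% and 2.09%). Against VAT CD4 T cells, 21 were higher and 8 lower in male VAT Tregs (5.18% and 2.51%). For female VAT Tregs set against male spleen Tregs, 6 were higher and 1 lower (1.18% and 0.197%). In either direction the calls over all regions were 3.26%, 6.73%, 7.69% and 1.38%. Median log2 fold changes of the 162 regions were 0.07, 0.02, 0.08 and 0.01, against 0.01, -0.01, -0.02 and -0.00 over all regions. In all, 43 regions at 24 genes were called at least once, and the share of all regions called at least once was not computed. Without male VAT 1 the counts were 1 and 6 by sex, 2 and 4 by tissue, and 6 and 8 against CD4 T cells. With short-region scaling they were 3 and 3, 8 and 5, 11 and 14, and 2 and 0, so against CD4 T cells lower calls then outnumbered higher ones. DESeq2's Wald test called 1 and 1, 8 and 0, 12 and 4, and 2 and 0.

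**Figure D1:**
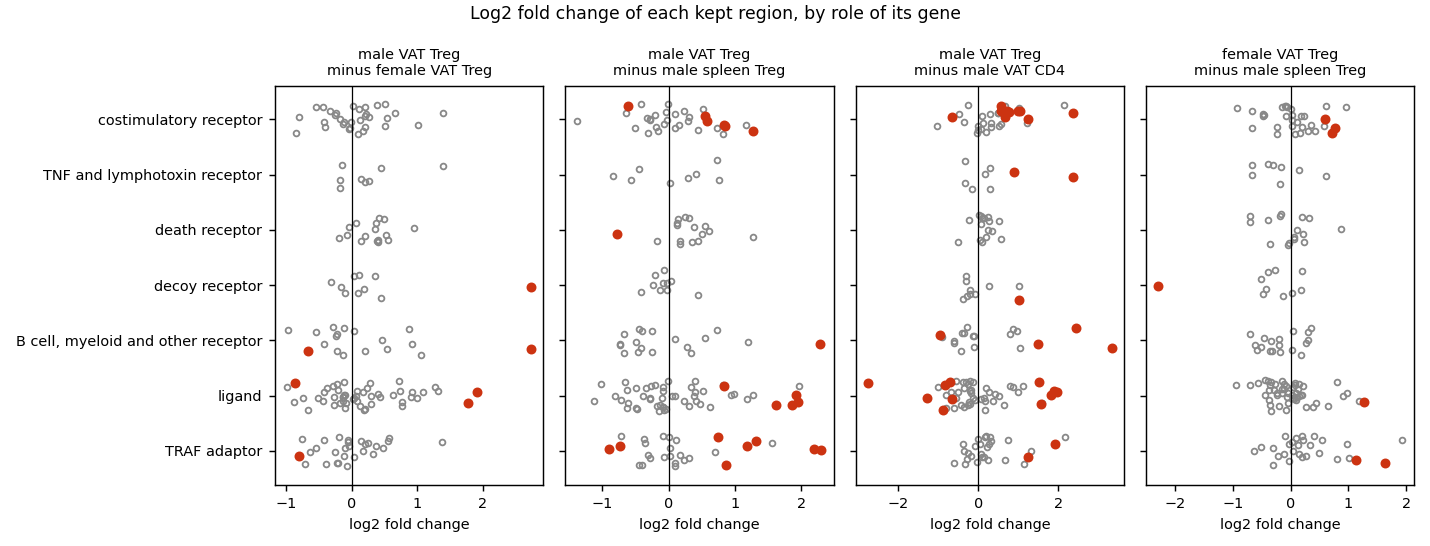
Log2 fold change (x axis) of each kept region, in rows by the role of its gene and in panels by comparison, where filled red points are called regions and open grey points are not; points are spread vertically within a row for legibility. Called regions lie mostly to the right in the panel against VAT CD4 T cells for costimulatory receptors (9 higher, 1 lower) and on both sides for ligands (5 higher, 6 lower). Of all regions, 5.18% were called higher and 2.51% lower in that comparison.

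**Figure D2:**
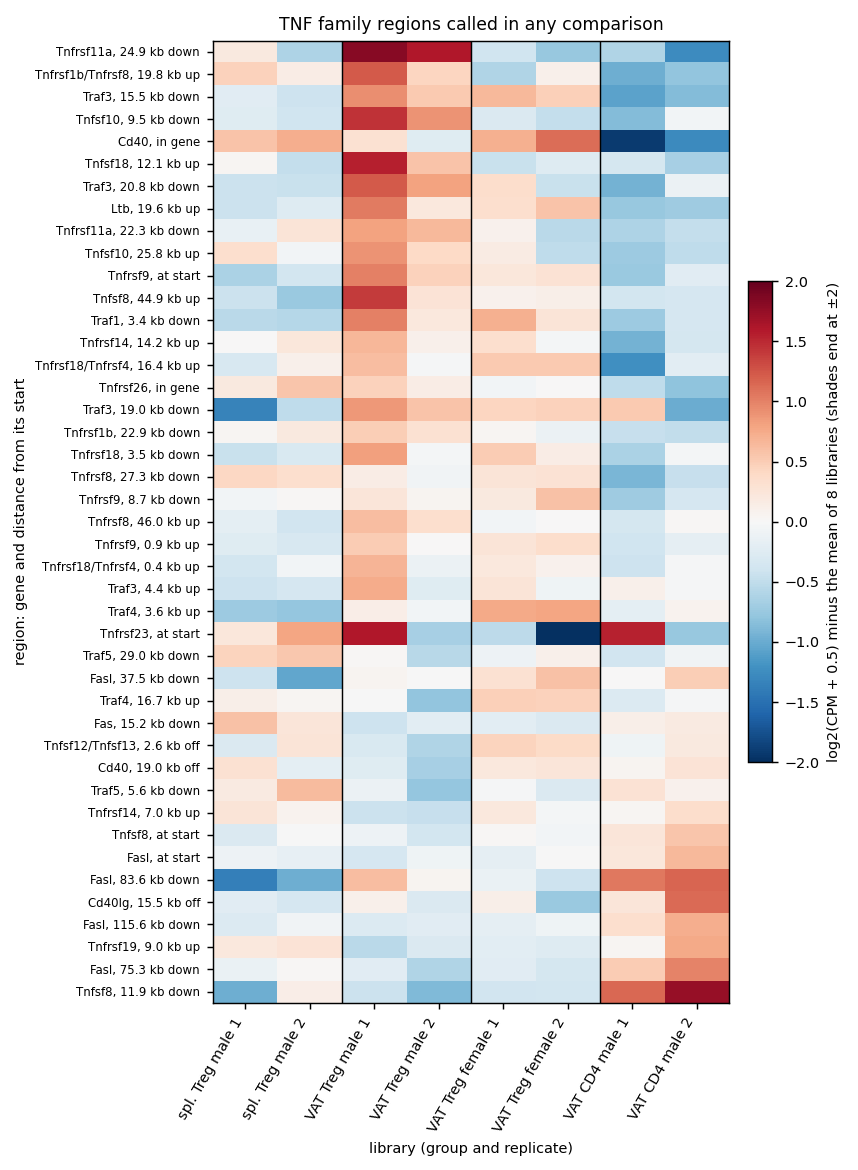
Accessibility of the 43 called regions (rows, named by gene and by distance from the start of the first gene named, or from the gene body where marked off) in the 8 libraries (columns), as log2(CPM + 0.5) minus the mean of the 8 libraries, with red above and blue below that mean and rows ordered by male VAT Tregs minus VAT CD4 T cells. Male VAT 1 is darker red than male VAT 2 in most of the upper rows, and the Fasl and Tnfsf8 rows at the bottom are reddest in the CD4 libraries.

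Costimulatory receptors are the members through which T cells receive survival and proliferation signals. Their 7 genes had 32 regions. Against VAT CD4 T cells 9 were higher and 1 lower in male VAT Tregs (all regions: 5.18% and 2.51%), at Tnfrsf9, Tnfrsf4, Tnfrsf18, Tnfrsf8 and Tnfrsf14. With short-region scaling 3 were higher and 2 lower, and without male VAT 1, 2 and 0. The median log2 fold change of the 32 regions was 0.49, and 0.25 with short-region scaling. Against spleen Tregs, 5 were higher and 1 lower in male VAT Tregs (1 and 1 with short-region scaling, and also 1 and 1 without male VAT 1) and 3 higher and 0 lower in female VAT Tregs (0 and 0 with short-region scaling). The shares over all regions were 4.64% and 2.09% for male VAT and 1.18% and 0.197% for female VAT. Between the sexes in VAT edgeR called 0 of the 32 (all regions: 3.26%), with 7 at an unadjusted p under 0.05 and 0 called by DESeq2.

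Tnfrsf9 encodes 4-1BB, an inducible receptor of activated T cells. It had 5 regions, 3 of them called. The 6059 bp region at chr4:150923196-150929255, within the gene and holding the start printed above with its NF-kB and AP-1 matches, had 65.7 and 44.6 CPM in male VAT, 38.1 and 39.5 in female VAT, 20.6 and 24.8 in spleen and 19.1 and 27.5 in CD4 libraries. Both male VAT values lay above all others, and the female VAT values lay above the spleen and CD4 values without overlap. It was higher in male VAT Tregs than in spleen Tregs (log2 fold change 1.28 ± 0.19, adjusted p = 5.73e-09) and than in CD4 T cells (1.24 ± 0.19, adjusted p = 8.46e-08), and these calls were kept in each fit without 1 library and with every alternative. In bulk libraries, fewer cells with the region open and less accessibility per cell cannot be told apart. In female VAT Tregs against spleen Tregs it was 0.76 ± 0.19, adjusted p = 0.00807, a call lost without either spleen library or either female VAT library (adjusted p 0.0563 to 0.351) and with short-region scaling or DESeq2's Wald test (adjusted p 0.0865 to 0.114). Between the sexes the difference was not called (0.51 ± 0.18, adjusted p = 0.102).

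The Tnfrsf9 region of highest CPM, chr4:150909608-150919281, lies 0.874 kb upstream of the first start and overlaps Park7, the gene of a redox protein, so its counts cannot be assigned to 1 gene. It had 63.4 and 59.8 CPM in spleen, 57.0 and 66.1 in CD4 libraries, 107 and 75.5 in male VAT and 90.1 and 96.0 in female VAT. Every VAT Treg value exceeded every spleen and CD4 value. Against spleen Tregs it was higher in male VAT (0.58 ± 0.17, adjusted p = 0.0175), a call lost without either spleen library or male VAT 1 (adjusted p 0.127 to 0.354) and with short-region scaling (adjusted p = 0.180). It was also higher in female VAT (0.60 ± 0.17, adjusted p = 0.0419), a call lost without either spleen library or either female VAT library (adjusted p 0.289 to 0.464) and with short-region scaling or DESeq2's Wald test (adjusted p 0.107 to 0.270). Against CD4 T cells it was 0.57 ± 0.17, adjusted p = 0.0188, a call lost without CD4 1 or male VAT 1 (adjusted p 0.265 to 0.470) and with short-region scaling or a fit of the compared groups alone (adjusted p 0.0946 to 0.251). The male and female VAT means were 91.5 ± 22.6 and 93.0 ± 4.19 CPM (SD, n = 2), which differed by less than the spread of the male pair. Another region, 8.68 kb downstream of the printed start, was higher in male VAT Tregs than in CD4 T cells at 23.1 ± 2.2 against 14.5 ± 2.78 CPM (0.67 ± 0.21, adjusted p = 0.0296), a call lost without CD4 1 or male VAT 1 (adjusted p 0.197 to 0.397) and with short-region scaling, a fit of the compared groups alone or DESeq2's Wald test (adjusted p 0.0846 to 0.207). Per kb of region, the start region and its upstream neighbour had similar levels in the male VAT Tregs, as the plot of the locus shows.

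Tnfrsf18 (GITR) and Tnfrsf4 (OX40) encode receptors that Tregs carry at high levels, and lie 9.7 kb apart on chromosome 4. Each had 6 regions, 4 of them assigned to both, with 3 called at Tnfrsf18 and 2 at Tnfrsf4. At chr4:156029851-156034820, 0.957 kb beyond the end of Tnfrsf18, there were 53.2 and 29.0 CPM in male VAT, 42.9 and 33.1 in female VAT, 21.8 and 24.1 in spleen and 19.1 and 29.0 in CD4 libraries. Male VAT 1 was the highest, and male VAT 2 lay level with CD4 2, so those groups touched. The region was higher than in spleen in male VAT (log2 fold change 0.85 ± 0.19, adjusted p = 0.000535), a call lost without male VAT 1 (adjusted p = 0.389) and with short-region scaling or DESeq2's Wald test (adjusted p 0.0566 to 0.294). Female VAT Tregs also exceeded spleen Tregs (0.72 ± 0.19, adjusted p = 0.0185), a call lost without either spleen library or female VAT 1 (adjusted p 0.132 to 0.811) and with short-region scaling or DESeq2's Wald test (adjusted p 0.229 to 0.884). Against CD4 T cells the male value was 0.77 ± 0.20, adjusted p = 0.00293, a call lost without CD4 1 or male VAT 1 (adjusted p 0.279 to 0.658) and with short-region scaling or DESeq2's Wald test (adjusted p 0.134 to 0.366). Without male VAT 1 the log2 fold changes against spleen and CD4 were 0.33 and 0.25.

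Between the 2 genes, chr4:156018825-156025954 had the highest level of either gene, with 68.0 and 39.0 CPM in male VAT, 48.7 and 44.9 in female VAT, 32.6 and 40.5 in spleen and 31.4 and 41.5 in CD4 libraries. Male VAT 2 fell below spleen 2 and CD4 2, so the groups overlapped. It was called against spleen (0.55 ± 0.18, adjusted p = 0.0373), a call lost without either spleen library, either female VAT library or male VAT 1 (adjusted p 0.0623 to 0.859) and with short-region scaling, a fit of the compared groups alone or DESeq2's Wald test (adjusted p 0.0691 to 0.282). Against CD4 T cells it was called as well (0.56 ± 0.19, adjusted p = 0.0394), a call lost without either spleen library, CD4 1, either female VAT library or male VAT 1 (adjusted p 0.0604 to 0.909) and with short-region scaling, a fit of the compared groups alone or DESeq2's Wald test (adjusted p 0.132 to 0.341). The region at chr4:156007191-156009932, upstream of Tnfrsf4 and overlapping Sdf4, had 13.4 ± 4.38 CPM in male VAT, 15.4 ± 0.0615 in female VAT and 6.66 ± 3.43 in CD4 T cells (0.99 ± 0.26, adjusted p = 0.00369 for males), a call lost without CD4 1 or male VAT 1 (adjusted p 0.346 to 0.360) and with short-region scaling or DESeq2's Wald test (adjusted p 0.0700 to 0.114). The regions at the starts of Tnfrsf4 (3747 bp, mean 15.9 CPM) and of Tnfrsf18 (217 bp, mean 4.44 CPM) were not called in any comparison.

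**Figure D3:**
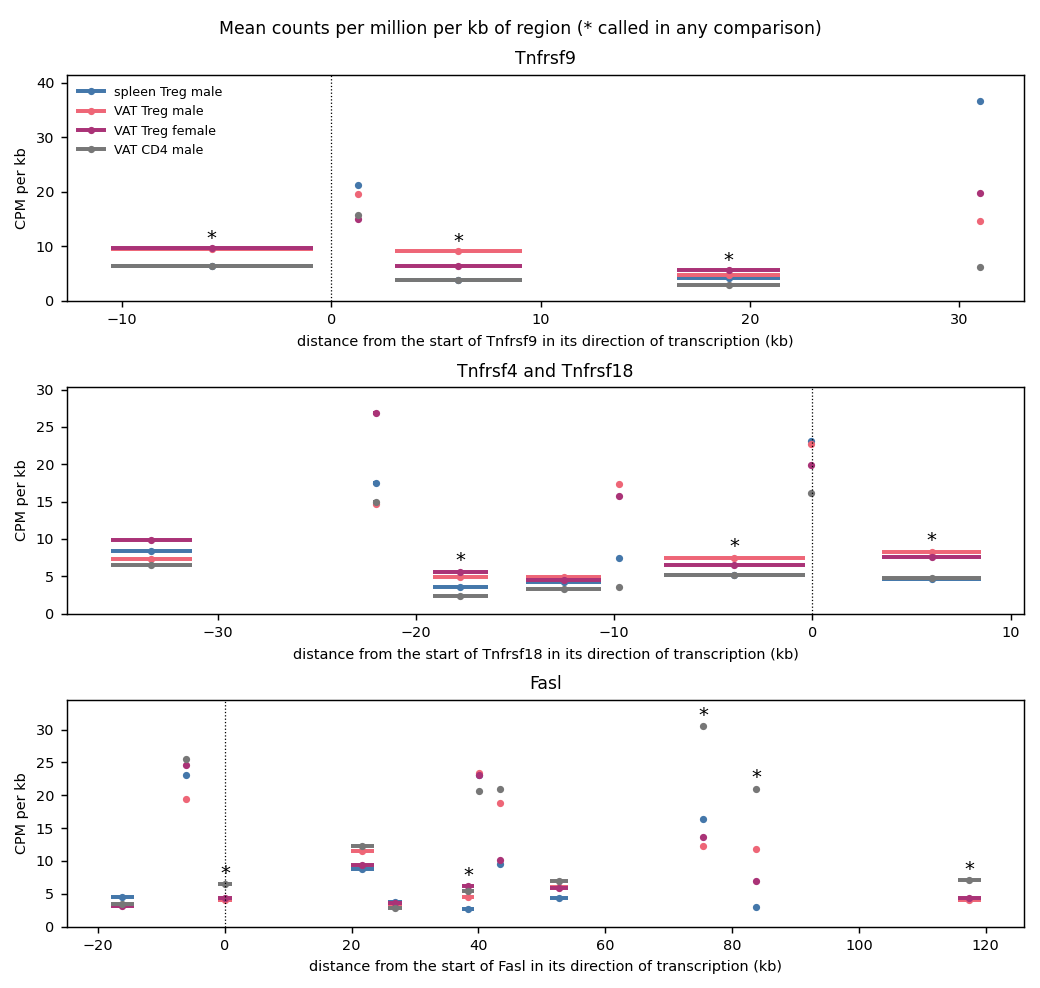
Mean CPM per kb of region (y axis) of each group against the distance from the first annotated start of Tnfrsf9, from that of Tnfrsf18 and from that of Fasl (x axis, kb, in the direction of transcription), where each bar spans a region, a dot marks its middle and a star marks a region called in any comparison. Male and female VAT Tregs lie above spleen Tregs and CD4 T cells over the 2 starred regions nearest the first Tnfrsf9 start, while CD4 T cells lie highest at the Fasl start.

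Tnfrsf14 encodes HVEM, which binds both stimulatory and inhibitory partners. Its 3 regions included 2 that went opposite ways. At chr4:154942297-154946446, 14.2 kb upstream of its start, there were 12.5 and 19.0 CPM in CD4 libraries, 24.7 and 28.8 in spleen, 30.9 and 23.8 in female VAT and 39.3 and 26.3 in male VAT. The CD4 values were the 2 lowest, and the Treg groups overlapped. Male VAT Tregs were higher than CD4 T cells (log2 fold change 1.05 ± 0.21, adjusted p = 4.48e-05), kept in each fit without 1 library and with every alternative. At chr4:154935056-154938413, 6.98 kb upstream, there were 24.8 and 31.2 CPM in CD4 libraries, 29.0 and 25.6 in spleen, 28.1 and 23.7 in female VAT and 17.9 and 17.5 in male VAT. Both male VAT values lay below the other 6. This region was lower in male VAT Tregs than in CD4 T cells (-0.67 ± 0.20, adjusted p = 0.0188), a call lost without CD4 2 or male VAT 1 (adjusted p 0.0653 to 0.325) and with a fit of the compared groups alone (adjusted p = 0.0741). It was also lower than in spleen Tregs (-0.62 ± 0.19, adjusted p = 0.0304), a call lost without either spleen library, either female VAT library or either male VAT library (adjusted p 0.0552 to 0.277) and with a fit of the compared groups alone or DESeq2's Wald test (adjusted p 0.0631 to 0.0744).

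Tnfrsf8 encodes CD30, a receptor of activated lymphocytes. It had 12 regions, 11 kept and 3 called. A 299 bp region 46.0 kb upstream (chr4:145361156-145361455) had 11.3 ± 1.71 CPM in male VAT Tregs and 6.44 ± 0.664 in spleen Tregs (0.84 ± 0.25, adjusted p = 0.0204), a call lost without either spleen library or male VAT 1 (adjusted p 0.0722 to 0.247) and with short-region scaling or DESeq2's Wald test (adjusted p 0.106 to 0.136). Within the gene, chr4:145282547-145287908 was at 22.2 ± 2.50 CPM in male VAT Tregs and 13.4 ± 3.12 in CD4 T cells (0.72 ± 0.21, adjusted p = 0.0155), a call lost without CD4 1 or male VAT 1 (adjusted p 0.157 to 0.359) and with short-region scaling or a fit of the compared groups alone (adjusted p 0.0580 to 0.144). Spleen and female VAT Tregs were at 28.1 ± 1.07 and 26.2 ± 0.416 CPM there. Its start region, the highest of the gene at 29.9 to 40.6 CPM per library, was not called (smallest adjusted p of the 4 comparisons = 0.479).

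Cd27 and Tnfrsf25 had no call. Cd27 encodes a receptor of naive and memory T cells, and its highest region (chr6:125229702-125233687) ran from 10.5 to 17.7 CPM over the libraries (smallest adjusted p = 0.869). Tnfrsf25 encodes DR3, the receptor of TL1A, and can expand Tregs when triggered. Its 20075 bp start region, which also overlaps Espn, ran from 71.8 to 106 CPM (smallest adjusted p = 0.228).

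**Figure D4:**
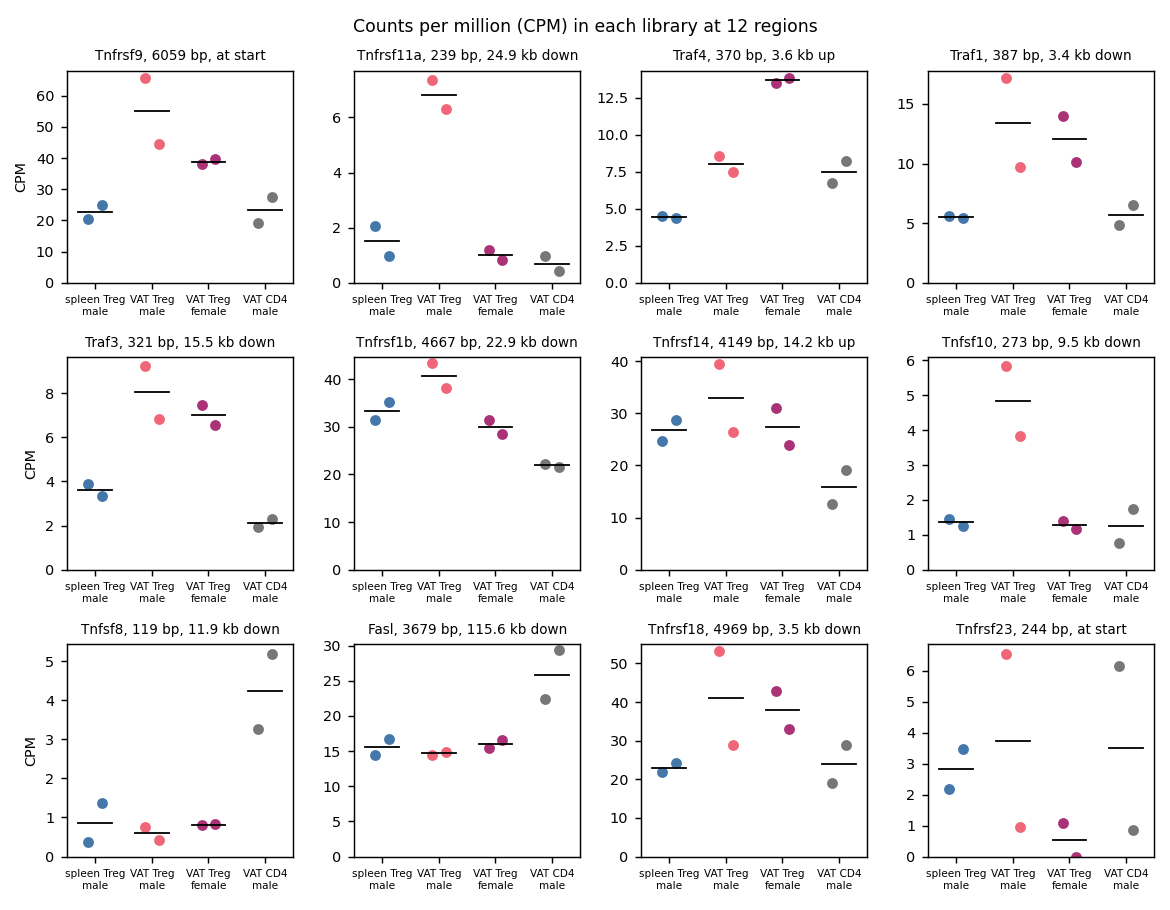
CPM of each library (points, 1 colour per group, with the group mean as a black line) at 12 regions, each on its own y axis starting at 0, with the width of the region and its distance up- or downstream of the gene's start in the panel title. The pairs are close at Traf4, while male VAT 1 lies above male VAT 2 in all panels except that of Fasl, and by far at Tnfrsf23.

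Tnfrsf1b encodes TNFR2, the TNF receptor that Tregs depend on more than conventional T cells do, and Tnfrsf1a the widely expressed TNFR1. Of their 8 regions, 2 were higher in male VAT Tregs than in CD4 T cells (all regions: 5.18%), both among the 6 at Tnfrsf1b. EdgeR called 0 in the other comparisons, with 2, 4 and 0 at an unadjusted p under 0.05 by sex, by tissue and in female VAT against spleen, and 0 called by DESeq2. At chr4:145219335-145224002, within the gene, there were 43.5 and 38.1 CPM in male VAT, 31.5 and 35.3 in spleen, 31.4 and 28.4 in female VAT and 22.1 and 21.6 in CD4 libraries. All 6 Treg values lay above both CD4 values, and both male VAT values above the other Tregs. Male VAT Tregs were higher than CD4 T cells (log2 fold change 0.90 ± 0.20, adjusted p = 0.000286), kept in each fit without 1 library and with every alternative. For male VAT against spleen Tregs the value was 0.29 ± 0.18, adjusted p = 0.415. A 195 bp region between Tnfrsf1b and its neighbour Tnfrsf8, assigned to both, had 3.39 ± 1.48 CPM in male VAT Tregs and 0.649 ± 0.101 in CD4 T cells (2.38 ± 0.61, adjusted p = 0.00354), a call lost without either CD4 library or male VAT 1 (adjusted p 0.0512 to 0.227). That region held 3 to 70 counts per library.

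The start region of Tnfrsf1b, 21981 bp long, had the highest CPM of any member region. It had 192 and 135 CPM in male VAT, 139 and 135 in female VAT, 125 and 122 in spleen and 117 and 151 in CD4 libraries. Male VAT 1 was the highest, and the other 7 libraries lay within 117 to 151 CPM. It was not called (smallest adjusted p = 0.128). Per kb its mean was 6.36 CPM, near the 6.75 CPM of the called region in the gene. Tnfrsf1a had only 2 short regions, and the higher, at its start, ran from 2.45 to 5.55 CPM (smallest adjusted p = 0.160).

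Death receptors carry an intracellular death domain. The 3 genes grouped here as death receptors were Fas, Tnfrsf10b (the mouse TRAIL receptor) and Tnfrsf21 (DR6). They had 16 regions, of which 1 was called, lower by tissue (all regions: 2.09%). Tnfrsf1a and Tnfrsf25 were counted under other roles, above. Of 3 Fas regions, the called one at chr19:34305826-34308105, 15.2 kb into the gene, had 12.7 and 9.97 CPM in spleen, 9.05 and 9.52 in CD4 libraries, 7.08 and 6.69 in female VAT and 6.08 and 7.14 in male VAT. Both spleen values lay above all others. It was lower in male VAT Tregs than in spleen Tregs (log2 fold change -0.77 ± 0.25, adjusted p = 0.0371), a call lost without either spleen library, either female VAT library or male VAT 1 (adjusted p 0.0523 to 0.358) and with a fit of the compared groups alone or DESeq2's Wald test (adjusted p 0.0543 to 0.144). For female VAT against spleen the log2 fold change was -0.70 ± 0.26, adjusted p = 0.209. At the Fas start, chr19:34288549-34292624, values ran from 11.6 to 23.8 CPM with male VAT Tregs at 19.7 ± 5.72 and spleen Tregs at 13.0 ± 1.90, a difference that missed the threshold (0.60 ± 0.21, adjusted p = 0.0567). The other comparisons called 0 of the 16 by edgeR, with 3, 2 and 1 at an unadjusted p under 0.05 by sex, against CD4 T cells and in female VAT against spleen, and 0 by DESeq2.

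Tnfrsf22, Tnfrsf23 and Tnfrsf26 are mouse decoy receptor genes in a cluster of related genes on chromosome 7. Whether reads were shared between them was not tested. Tnfrsf11b encodes osteoprotegerin, the soluble decoy of RANKL. The only Tnfrsf23 region, 244 bp at its start, had 6.53 and 0.960 CPM in male VAT, 1.10 and 0 in female VAT, 2.18 and 3.46 in spleen and 6.16 and 0.865 in CD4 libraries. The pairs disagreed in 3 of the 4 groups, with counts from 0 to 103, and male VAT 2 lay below female VAT 1. It was called higher in males than in females (log2 fold change 2.74 ± 0.54, adjusted p = 0.000123), a call lost without female VAT 2 or male VAT 1 (adjusted p 0.132 to 0.778) and with short-region scaling or DESeq2's Wald test (adjusted p 0.0678 to 0.703). It was also called lower in female VAT than in spleen (-2.29 ± 0.56, adjusted p = 0.00674), a call lost without spleen 2 or female VAT 2 (adjusted p 0.224 to 0.572) and with short-region scaling or DESeq2's Wald test (adjusted p 0.249 to 1.00). At Tnfrsf26, 1 of 2 regions was called, and chr7:143627719-143631700 had 11.7 and 9.52 CPM in CD4 libraries, 16.4 and 17.0 in female VAT, 23.5 and 18.8 in male VAT and 19.5 and 25.1 in spleen. The CD4 values were the 2 lowest, and the male VAT against CD4 difference was 1.01 ± 0.23, adjusted p = 0.000444, a call lost without CD4 2 (adjusted p = 0.0587). Tnfrsf22 (1 region, mean 15.8 CPM) and Tnfrsf11b (6 regions, means of 5.29 to 20.6 CPM) were not called.

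Tnfrsf11a encodes RANK, best known on osteoclast precursors and dendritic cells. It held the single sex call among all members that was kept in each fit without 1 library. The 8 receptor genes of B cells, myeloid cells and other tissues had 18 regions, with 1 higher and 1 lower by sex, 1 and 0 by tissue, 3 and 1 against CD4 T cells, and 0 in female VAT against spleen (edgeR, and 0 also at an unadjusted p under 0.05 and by DESeq2). Of all regions, 2.04% and 1.21% were called by sex, 4.64% and 2.09% by tissue, and 5.18% and 2.51% against CD4 T cells. The 239 bp region at chr1:105805633-105805872, 24.9 kb downstream of the start and inside the gene, had 7.35 and 6.29 CPM in male VAT, 1.20 and 0.821 in female VAT, 2.06 and 0.955 in spleen and 0.963 and 0.433 in CD4 libraries. Both male VAT values lay over 3 times the highest of the other 6. The male VAT level was higher than in female VAT Tregs (log2 fold change 2.73 ± 0.46, adjusted p = 2.27e-06), in spleen Tregs (2.28 ± 0.43, adjusted p = 1.74e-05) and in CD4 T cells (3.34 ± 0.54, adjusted p = 2.75e-07). These calls were kept in each fit without 1 library and with every alternative, at adjusted p of at most 0.0394. Depth was low, from 3 to 116 counts per library. A second short region 22.3 kb downstream of the start had 4.66 ± 0.403 CPM in male VAT Tregs and 1.64 ± 0.134 in CD4 T cells (1.50 ± 0.46, adjusted p = 0.0216), a call lost without either CD4 library or male VAT 1 (adjusted p 0.121 to 0.154) and with short-region scaling or DESeq2's Wald test (adjusted p 0.0724 to 0.0944). Its male against female difference was 1.06 ± 0.41, adjusted p = 0.156. The other 2 of the 4 Tnfrsf11a regions were not called. Summed regions of myeloid and dendritic cell markers were 178 to 240 CPM in male VAT Tregs and 195 to 254 CPM in the other groups.

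Cd40, the receptor through which T cells license B cells and dendritic cells, had 2 regions, each called once. At chr2:165032991-165036660, 19.0 kb from the gene and overlapping Ncoa5, a nuclear receptor coactivator gene, there were 21.0 and 21.5 CPM in female VAT, 22.4 and 15.8 in spleen, 18.9 and 22.1 in CD4 libraries and 15.3 and 11.3 in male VAT. Male VAT 2 was the lowest, and male VAT 1 lay below spleen 2, the lowest of the rest. It was lower in males than in females (log2 fold change -0.66 ± 0.21, adjusted p = 0.0476), a call lost without either spleen library, either female VAT library or male VAT 2 (adjusted p 0.0612 to 0.338) and with DESeq2 size factors, a fit of the compared groups alone or DESeq2's Wald test (adjusted p 0.0507 to 0.219). A 174 bp region across the boundary of Cd40, chr2:165055531-165055705, had 3.39 and 3.82 CPM in spleen, 3.79 and 5.16 in female VAT, 2.72 and 1.71 in male VAT and 0.193 and 0.577 in CD4 libraries. All Treg values lay above both CD4 values, at 1 to 64 counts per library (2.44 ± 0.65, adjusted p = 0.00581 for male VAT Tregs), a call lost without CD4 1 or male VAT 1 (adjusted p 0.134 to 0.135) and with DESeq2's Wald test (adjusted p = 0.0509). Summed regions of B cell markers were 368 to 436 CPM in the CD4 libraries and 351 to 437 CPM in the Treg libraries, mostly from Cr2. The single region of Blk, a B cell kinase gene, moved with the Cd40 region, at 8.09 and 12 CPM in CD4 libraries and 18.1 to 24.4 CPM in the 6 Treg libraries, and was called higher in male VAT Tregs than in CD4 T cells. The part of B cells in this result was not tested.

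Tnfrsf19 (TROY, an orphan receptor of epithelial and neural cells) had 2 regions, 1 of them called. At chr14:61055835-61057636, 8.98 kb upstream, there were 6.74 and 11.4 CPM in CD4 libraries, 7.64 and 8.00 in spleen, 5.59 and 5.40 in female VAT and 4.31 and 5.22 in male VAT. CD4 1 lay below both spleen values, and both male VAT values were the lowest. It was lower in male VAT Tregs than in CD4 T cells (log2 fold change -0.96 ± 0.29, adjusted p = 0.0193), a call lost without CD4 2 or male VAT 1 (adjusted p 0.198 to 0.563) and with a fit of the compared groups alone or DESeq2's Wald test (adjusted p 0.0564 to 0.108). No call was made at Tnfrsf13b (TACI), Tnfrsf13c (the BAFF receptor), Tnfrsf17 (BCMA), Tnfrsf12a (the TWEAK receptor) or Relt. The only Tnfrsf13c region lay 18.5 kb from the gene, overlapping Cenpm, at 11.5 to 24.2 CPM (smallest adjusted p = 0.132), and the higher of 2 short Tnfrsf13b regions was at 1.07 to 3.05 CPM (smallest adjusted p = 0.497).

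The 16 ligand genes with regions had 51 kept regions. Against VAT CD4 T cells, 5 were higher and 6 lower in male VAT Tregs (2 and 8 with short-region scaling, and 0 and 5 without male VAT 1). By tissue 5 were higher and 0 lower in male VAT (4 and 1 with short-region scaling, 0 and 1 without male VAT 1), and 1 was higher in female VAT than in spleen. By sex, 2 were higher and 1 lower in males. Over all regions the shares higher and lower were 5.18% and 2.51% against CD4 T cells and 4.64% and 2.09% by tissue. They were 1.18% and 0.197% in female VAT against spleen, and 2.04% and 1.21% by sex.

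Fasl encodes Fas ligand, a killing molecule of effector T and NK cells. It had 12 regions, 5 of them called, and 3 of these were lower in male VAT Tregs than in CD4 T cells. At its start, chr1:161787328-161789583, where the printed sequence lies, there were 12.3 and 16.6 CPM in CD4 libraries, 8.11 and 9.81 in male VAT, 9.18 and 10.3 in female VAT and 9.70 and 9.25 in spleen. Both CD4 values were the highest (log2 fold change -0.71 ± 0.24, adjusted p = 0.0463), a call lost without either spleen library, CD4 2, either female VAT library or male VAT 1 (adjusted p 0.0557 to 0.483) and with a fit of the compared groups alone or DESeq2's Wald test (adjusted p 0.117 to 0.156). At chr1:161669245-161672924, 108 kb from the gene, there were 22.3 and 29.4 CPM in CD4 libraries, 14.4 and 14.9 in male VAT, 15.5 and 16.5 in female VAT and 14.4 and 16.7 in spleen. The 6 Treg values lay together below both CD4 values (-0.83 ± 0.21, adjusted p = 0.00287), a call lost without CD4 2 (adjusted p = 0.195). At chr1:161712949-161713194, 67.5 kb away, there were 6.16 and 8.80 CPM in CD4 libraries, 3.48 and 2.56 in male VAT, 3.49 and 3.17 in female VAT and 3.76 and 4.24 in spleen. Again CD4 values lay above all others (-1.29 ± 0.35, adjusted p = 0.00647), a call lost without CD4 2 (adjusted p = 0.231). The summed regions of CD8 and NK markers were 118 to 120 CPM in the CD4 libraries and 102 to 115 CPM in the Tregs, mostly from Klrb1c. The region of the NK cell receptor gene Klrk1 followed the Fasl order, at 3.47 and 3.46 CPM in CD4 libraries and 0.242 to 1.17 CPM in the 6 Treg libraries, and was not called. The part of NK and CD8 cells in these calls was not tested.

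Other Fasl regions differed between tissues. At chr1:161749164-161751013, 29.7 kb from the gene, there were 6.06 and 3.76 CPM in spleen, 10.3 and 12.7 in female VAT, 8.62 and 8.21 in male VAT and 8.28 and 11.8 in CD4 libraries. The spleen values were the 2 lowest. It was higher than in spleen in female VAT (1.27 ± 0.27, adjusted p = 0.000533), a call lost without spleen 2 or female VAT 2 (adjusted p 0.0874 to 0.251). In male VAT it was also higher than in spleen (0.83 ± 0.27, adjusted p = 0.0329), a call lost without spleen 2, female VAT 2 or male VAT 1 (adjusted p 0.0526 to 0.544) and with short-region scaling, a fit of the compared groups alone or DESeq2's Wald test (adjusted p 0.0699 to 0.180). A 269 bp region 75.8 kb away had 0.606 and 0.955 CPM in spleen, 2.09 and 1.64 in female VAT, 3.86 and 2.45 in male VAT and 5.39 and 5.91 in CD4 libraries. The 4 groups did not overlap, in the order spleen, female VAT, male VAT and CD4. The rise from spleen to male VAT was called (1.96 ± 0.48, adjusted p = 0.00237), a call lost without male VAT 1 (adjusted p = 0.116), and against CD4 T cells the value was -0.81 ± 0.41, adjusted p = 0.280. The highest region of Fasl, chr1:161764974-161768607, ran from 31.6 to 48.9 CPM and was not called (smallest adjusted p = 0.203).

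Tnfsf8 encodes CD30 ligand, and had 3 of 8 regions called, in both directions. A 119 bp region within the gene had 3.27 and 5.19 CPM in CD4 libraries, 0.760 and 0.427 in male VAT, 0.798 and 0.821 in female VAT and 0.364 and 1.37 in spleen. Both CD4 values lay above the others, at counts from 3 to 36 per library (log2 fold change -2.76 ± 0.63, adjusted p = 0.000664), a call lost without CD4 2 (adjusted p = 0.124). Its start region, which holds the printed sequence, had 20 and 25.0 CPM in CD4 libraries, 15.6 and 12.9 in male VAT, 17.1 and 16.1 in female VAT and 13.7 and 16.6 in spleen. The CD4 pair was again highest (-0.66 ± 0.21, adjusted p = 0.0329), a call lost without CD4 2, either female VAT library or male VAT 2 (adjusted p 0.0511 to 0.370) and with a fit of the compared groups alone or DESeq2's Wald test (adjusted p 0.0984 to 0.102). By contrast a 297 bp region 44.9 kb upstream had 6.40 and 2.67 CPM in male VAT, 2.29 and 2.35 in female VAT, 1.45 and 1.07 in spleen and 1.54 and 1.59 in CD4 libraries. Both male VAT values were the highest, with male VAT 1 far above male VAT 2, and the region was higher than in spleen (1.91 ± 0.45, adjusted p = 0.00121), a call lost without spleen 2 or male VAT 1 (adjusted p 0.0816 to 0.336). Male VAT Tregs also lay above CD4 T cells (1.57 ± 0.48, adjusted p = 0.0222), a call lost without either CD4 library or male VAT 1 (adjusted p 0.141 to 0.673) and with short-region scaling or DESeq2's Wald test (adjusted p 0.0806 to 0.137).

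Tnfsf10 (TRAIL) and Tnfsf18 (the ligand of GITR) had 7 and 2 regions, of which 2 and 1 were called, and each had a short region called in 3 comparisons. The Tnfsf10 region chr3:27326601-27326874, 9.52 kb into the gene, had 5.83 and 3.84 CPM in male VAT, 1.40 and 1.17 in female VAT, 1.45 and 1.25 in spleen and 0.770 and 1.73 in CD4 libraries. Both male VAT values lay above the other 6, at 4 to 92 counts per library. It was higher than in female VAT Tregs (log2 fold change 1.91 ± 0.47, adjusted p = 0.00461), a call lost without either female VAT library or male VAT 1 (adjusted p 0.112 to 0.194) and with DESeq2's Wald test (adjusted p = 0.0647). The difference from spleen Tregs was 1.86 ± 0.45 (adjusted p = 0.00208), a call lost without spleen 2 or male VAT 1 (adjusted p 0.0724 to 0.154). That from CD4 T cells was of like size (1.90 ± 0.51, adjusted p = 0.00521), a call lost without CD4 1 or male VAT 1 (adjusted p 0.167 to 0.212). A second Tnfsf10 region, 25.8 kb upstream, was called against CD4 T cells alone at 4.86 ± 1.29 against 1.71 ± 0.236 CPM (1.51 ± 0.45, adjusted p = 0.0161), a call lost without either CD4 library or male VAT 1 (adjusted p 0.0849 to 0.239) and with short-region scaling or DESeq2's Wald test (adjusted p 0.0671 to 0.0884). The start region of Tnfsf10 ran from 17.3 to 28 CPM and was not called (smallest adjusted p = 0.370).

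The Tnfsf18 region chr1:161482298-161482511, 12.1 kb upstream, had 7.86 and 3.73 CPM in male VAT, 1.6 and 1.88 in female VAT, 2.42 and 1.55 in spleen and 1.73 and 1.30 in CD4 libraries. Male VAT 1 was more than 3 times every value outside the male VAT group, and male VAT 2 also lay above them. Male VAT Tregs exceeded female VAT Tregs (log2 fold change 1.77 ± 0.42, adjusted p = 0.00288), a call lost without either female VAT library or male VAT 1 (adjusted p 0.0707 to 0.359) and with DESeq2's Wald test (adjusted p = 0.0767). They exceeded spleen Tregs (1.62 ± 0.40, adjusted p = 0.00273), a call lost without spleen 2 or male VAT 1 (adjusted p 0.150 to 0.352) and with DESeq2's Wald test (adjusted p = 0.0643). They also exceeded CD4 T cells (1.98 ± 0.46, adjusted p = 0.000959), a call lost without CD4 2 or male VAT 1 (adjusted p 0.0548 to 0.269). GITR ligand is best known from endothelial and antigen-presenting cells, and the summed regions of endothelial and stromal markers were 208 to 222 CPM in male VAT Tregs and 214 to 241 CPM in the other groups.

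Cd40lg, the ligand of CD40 and a molecule of helper T cells, lies on chromosome X and had 3 regions, all outside the gene and 1 called. At chrX:57196237-57196643, 15.5 kb away, there were 8.86 and 16.9 CPM in CD4 libraries, 7.98 and 5.97 in male VAT, 8.08 and 4.22 in female VAT and 6.30 and 5.79 in spleen. CD4 2 stood far above all others, and CD4 1 was only just above the highest Treg value. It was lower in male VAT Tregs than in CD4 T cells (log2 fold change -0.89 ± 0.26, adjusted p = 0.0167), a call lost without CD4 2 or male VAT 2 (adjusted p 0.122 to 0.732) and with DESeq2's Wald test (adjusted p = 0.196). The male against female log2 fold change was 0.18 ± 0.27 (adjusted p = 0.869), beside a median of -0.59 over the 991 X-linked regions.

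Tnfsf12 (TWEAK) and Tnfsf13 (APRIL) are neighbours that share 1 region, chr11:69680347-69683618, which also overlaps Senp3, a SUMO protease gene. It had 22.0 and 21.1 CPM in female VAT, 13.0 and 10.4 in male VAT, 13.1 and 19.3 in spleen and 15.2 and 18.5 in CD4 libraries. Female VAT values were the 2 highest and did not overlap the male pair. It was lower in males than in females (log2 fold change -0.87 ± 0.21, adjusted p = 0.00388), a call lost without either female VAT library or male VAT 2 (adjusted p 0.0524 to 0.130).

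Tnf, Lta and Ltb, the genes of TNF and the lymphotoxins, lie side by side on chromosome 17 and share a 12943 bp region that spans all of them. It had 38.7 and 55.1 CPM in spleen, 37.7 and 50.8 in CD4 libraries, 46.3 and 41.1 in female VAT and 44.5 and 29.6 in male VAT. Male VAT 2 was the lowest and the groups otherwise overlapped, and it was not called (smallest adjusted p = 0.295). Tnf and Lta had no call. Of 3 Ltb regions, the called one, 205 bp long and 19.6 kb upstream and inside Aif1, was higher in male VAT Tregs at 3.45 ± 1.57 CPM than in CD4 T cells at 0.986 ± 0.0330 CPM (1.83 ± 0.55, adjusted p = 0.0172), a call lost without either CD4 library or male VAT 1 (adjusted p 0.125 to 0.414) and with short-region scaling or DESeq2's Wald test (adjusted p 0.0571 to 0.0907).

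Tnfsf11 (RANKL, the ligand of RANK) ran from 13.1 to 18.8 CPM at its start region, and Tnfsf14 (LIGHT, a ligand of HVEM) from 7.14 to 14.8 CPM at its own. Neither was called, with smallest adjusted p of 0.491 and 0.0804. The ligands of OX40 (Tnfsf4) and 4-1BB (Tnfsf9) and the B cell factor BAFF (Tnfsf13b) had 2 regions each and no call. The single Tnfsf15 (TL1A) region, with a mean of 0.516 CPM, was not tested.

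TRAF adaptors carry the signal of these receptors to NF-kB and MAP kinases. Their 6 genes had 28 regions. In male VAT against spleen Tregs 6 were higher, at Traf1, Traf3 and Traf4, and 2 were lower, both at Traf5. That became 2 and 2 with short-region scaling, and 0 and 2 without male VAT 1. Against CD4 T cells 2 were higher in male VAT Tregs, female VAT Tregs had 2 higher than spleen Tregs, and by sex 1 was lower in males. Beside these, the shares of all regions were 4.64% higher and 2.09% lower in male VAT against spleen. They were 5.18% higher against CD4 T cells, 1.18% higher in female VAT against spleen and 1.21% lower by sex.

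Traf1, an NF-kB target whose product binds TRAF2, had 7 regions, 1 of them called. At chr2:34958014-34958401, 3.37 kb into the gene, there were 17.2 and 9.70 CPM in male VAT, 14 and 10.1 in female VAT, 5.58 and 5.43 in spleen and 4.81 and 6.49 in CD4 libraries. All 4 VAT Treg values lay above all spleen and CD4 values. It was higher than in spleen in male VAT (log2 fold change 1.31 ± 0.25, adjusted p = 2.03e-05), a call lost without male VAT 1 (adjusted p = 0.103). Female VAT Tregs were higher than spleen Tregs too (1.13 ± 0.26, adjusted p = 0.00198), a call lost without spleen 2 or female VAT 1 (adjusted p 0.0976 to 0.442) and with short-region scaling or DESeq2's Wald test (adjusted p 0.0842 to 0.0977). The male VAT level also exceeded that of CD4 T cells (1.25 ± 0.27, adjusted p = 0.000256), a call lost without male VAT 1 (adjusted p = 0.206). Between the sexes it was 0.18 ± 0.23, adjusted p = 0.844. The adjoining start region had much higher counts, from 40.9 to 56.8 CPM, and was not called (smallest adjusted p = 0.846).

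Traf3, which restrains non-canonical NF-kB signalling, had 4 of 5 regions higher in male VAT than in spleen Tregs. The region chr12:111181871-111182192, 15.5 kb into the gene, had 9.25 and 6.82 CPM in male VAT, 7.48 and 6.57 in female VAT, 3.88 and 3.34 in spleen and 1.93 and 2.31 in CD4 libraries. VAT Tregs of both sexes lay above spleen Tregs, and these above CD4 T cells, without overlap. Male VAT Tregs were higher than CD4 T cells (log2 fold change 1.92 ± 0.36, adjusted p = 1.75e-05), kept in each fit without 1 library and with every alternative, and higher than spleen Tregs (1.18 ± 0.30, adjusted p = 0.00378), a call lost without spleen 2 or male VAT 1 (adjusted p 0.120 to 0.122). In female VAT the difference from spleen missed the threshold (0.98 ± 0.31, adjusted p = 0.0951).

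The other 3 Traf3 regions were called against spleen only. One 4.41 kb upstream had 24.6 ± 11.5 CPM in male VAT Tregs and 14.9 ± 0.607 in spleen Tregs (0.74 ± 0.20, adjusted p = 0.00800), a call lost without either spleen library or male VAT 1 (adjusted p 0.0837 to 0.795) and with short-region scaling or DESeq2's Wald test (adjusted p 0.137 to 0.147). A 101 bp region had 2.08 ± 0.376 and 0.359 ± 0.336 CPM (2.30 ± 0.69, adjusted p = 0.0199), a call lost without spleen 1 or male VAT 1 (adjusted p = 0.188) and with short-region scaling or DESeq2's Wald test (adjusted p 0.0584 to 0.103). A 153 bp region had 2.21 ± 0.555 and 0.481 ± 0.00514 CPM (2.19 ± 0.71, adjusted p = 0.0362), a call lost without any 1 library (adjusted p 0.0536 to 0.285) and with short-region scaling, no low-count filter or DESeq2's Wald test (adjusted p 0.0531 to 0.144). The start region of Traf3, at 19.8 to 31.8 CPM, was not called (smallest adjusted p = 0.705).

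The 5 regions assigned to Traf4, an adaptor known mainly from epithelia, included 2 called ones, both upstream and over neighbouring genes. At chr11:78169121-78169491, 3.57 kb upstream within Nek8, there were 13.5 and 13.8 CPM in female VAT, 8.55 and 7.46 in male VAT, 6.74 and 8.22 in CD4 libraries and 4.49 and 4.36 in spleen. Female VAT Tregs were highest and spleen Tregs lowest, with each pair close. It was higher in female VAT than in spleen (log2 fold change 1.63 ± 0.26, adjusted p = 9.05e-07), kept in each fit without 1 library and with every alternative, and higher in male VAT than in spleen (0.87 ± 0.27, adjusted p = 0.0255), a call lost without either spleen library or male VAT 1 (adjusted p 0.121 to 0.196) and with short-region scaling, a fit of the compared groups alone or DESeq2's Wald test (adjusted p 0.0605 to 0.134). Between male and female VAT Tregs the difference missed the threshold (-0.76 ± 0.25, adjusted p = 0.0596). At chr11:78182269-78184996, 16.7 kb upstream and over Rpl23a, there were 14.8 and 14.7 CPM in female VAT, 10.5 and 5.86 in male VAT, 8.67 and 10.4 in CD4 libraries and 11.4 and 10.8 in spleen. Female VAT values were the 2 highest, and male VAT 2 was the lowest of all. It was lower in males than in females (-0.81 ± 0.23, adjusted p = 0.0250), a call lost without either female VAT library or male VAT 2 (adjusted p 0.207 to 0.386) and with DESeq2's Wald test (adjusted p = 0.192). The highest Traf4 region, chr11:78175362-78180543, over Nek8 and Tlcd1, ran from 24.0 to 44.7 CPM and was not called (smallest adjusted p = 0.0868).

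Traf5, which couples OX40 and CD27 to NF-kB, had 2 of 6 regions lower in male VAT than in spleen Tregs. At chr1:192059955-192063626, 29.0 kb into the gene, there were 15.4 and 16.5 CPM in spleen, 11.4 and 7.46 in male VAT, 10.5 and 12.1 in female VAT and 8.47 and 10.7 in CD4 libraries. Both spleen values lay above the other 6 (log2 fold change -0.74 ± 0.22, adjusted p = 0.0219), a call lost without either spleen library or male VAT 2 (adjusted p 0.0803 to 0.271) and with DESeq2's Wald test (adjusted p = 0.135). At chr1:192086771-192086992, 5.61 kb into the gene, there were 6.06 and 8.42 CPM in spleen, 4.82 and 2.88 in male VAT, 5.19 and 4.22 in female VAT and 6.55 and 5.63 in CD4 libraries. Spleen 1 lay among the CD4 values, and the male VAT pair overlapped the female pair (-0.89 ± 0.30, adjusted p = 0.0442), a call lost without spleen 2, either female VAT library or male VAT 2 (adjusted p 0.0608 to 0.490) and with a fit of the compared groups alone or DESeq2's Wald test (adjusted p 0.0679 to 0.222). In female VAT against spleen neither was called (-0.51 ± 0.23, adjusted p = 0.410 and -0.64 ± 0.30, adjusted p = 0.475). The start region of Traf5 ran from 47.8 to 62.4 CPM (smallest adjusted p = 0.701).

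Traf2, used by most receptors of the family, and Traf6, used by CD40, RANK and Toll-like receptors, had no call. Their start regions ran from 45.4 to 69.4 CPM and 31.2 to 42.4 CPM, with smallest adjusted p of 0.805 and 0.551.

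Beside the members, 40 genes of the pathway downstream of the receptors were counted: adaptors, kinases, caspases, NF-kB subunits and brakes. Regions were found at 39 (none at Otulin), 203 in all. In male VAT Tregs, 7 regions were higher and 3 lower than in female VAT Tregs (all regions: 2.04% and 1.21%). Against spleen Tregs there were 30 and 3 (4.64% and 2.09%), and against CD4 T cells 26 and 3 (5.18% and 2.51%). In female VAT Tregs 11 were higher and 0 lower than in spleen (1.18% and 0.197%). With short-region scaling these were 1 and 3, 21 and 8, 9 and 5, and 8 and 0, and without male VAT 1 they were 0 and 9, 15 and 2, 4 and 2, and 14 and 0, so the sex split turned over under both. Tnfaip3, which encodes the NF-kB brake A20, gave 14 of the 30 regions higher in male VAT and 9 of the 11 in female VAT, out of its 21 regions.

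At Tnfaip3, chr10:19060610-19064261, 45.2 kb from the gene, had 98.9 and 101 CPM in female VAT, 43.3 and 46.4 in spleen, 133 and 91.8 in male VAT and 77.8 and 114 in CD4 libraries. All VAT values, Treg and CD4, lay above both spleen values (1.16 ± 0.17, adjusted p = 6.22e-08 for female VAT against spleen). Within the gene, chr10:19001610-19002603 had 15.4 and 8.00 CPM in male VAT, 6.68 and 6.57 in female VAT, 5.78 and 4.76 in CD4 libraries and 0.970 and 1.91 in spleen (2.93 ± 0.32, adjusted p = 1.96e-15 for male VAT against spleen). Bcl2l1, which encodes the survival protein Bcl-xL, had 26.5 and 14.7 CPM in male VAT, 11.6 and 13.1 in female VAT, 7.40 and 10.1 in spleen and 5.20 and 5.34 in CD4 libraries at chr2:152825757-152826281. The male VAT level exceeded that of CD4 T cells there (1.98 ± 0.26, adjusted p = 8.53e-11). Nfkb1, an NF-kB subunit gene, led the sex comparison at chr3:135602800-135603059, with 8.55 and 4.27 CPM in male VAT, 0.798 and 1.99 in female VAT, 0.727 and 0.717 in spleen and 3.85 and 2.74 in CD4 libraries (2.25 ± 0.43, adjusted p = 6.3e-05), a call lost without male VAT 1 or female VAT 1 (adjusted p 0.114 to 0.119). Ikbkg, the X-linked regulatory subunit of the IKK complex, was lower in males than in females at chrX:74427249-74430640 (-0.94 ± 0.21, adjusted p = 0.00122), as X-linked regions were by their median, a call lost without female VAT 2 (adjusted p = 0.139). A region assigned to Sharpin, a subunit of a ubiquitin ligase, was lower as well (-1.27 ± 0.32, adjusted p = 0.00659), a call lost without female VAT 2 or male VAT 2 (adjusted p 0.0733 to 0.232) and with DESeq2's Wald test (adjusted p = 0.0723). The Tnfaip3 and Bcl2l1 calls named here were kept in each fit without 1 library and with every alternative.

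Of the 46 members with regions, 22 had no call in any comparison: Cd27, Lta, Relt, Tnf, Tnfrsf10b, Tnfrsf11b, Tnfrsf12a, Tnfrsf13b, Tnfrsf13c, Tnfrsf17, Tnfrsf1a, Tnfrsf21, Tnfrsf22, Tnfrsf25, Tnfsf11, Tnfsf13b, Tnfsf14, Tnfsf15, Tnfsf4, Tnfsf9, Traf2 and Traf6. Over the 58 tested regions of 21 of them, the smallest adjusted p in edgeR was 0.108 by sex, 0.0804 by tissue, 0.0545 against CD4 T cells and 0.572 in female VAT against spleen. At an unadjusted p under 0.05 there were 5, 8, 7 and 0, and DESeq2 called 0 in each. The means of single regions ran from 1.13 to 31.8 CPM at Tnfrsf21 (11 regions), 4.71 to 18.2 at Tnfrsf10b (2), 11.4 to 17.8 at Relt (2), 5.02 to 40.8 at Tnfrsf12a (2) and 1.21 to 15.8 at Tnfrsf17 (3). They ran from 2.19 to 3.07 CPM at Tnfsf4, 1.99 to 4.06 at Tnfsf9 and 4.68 to 27.9 at Tnfsf13b.

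Of the 64 calls over the 4 comparisons, those kept in every fit that left out 1 library were 1 of 4 higher by sex (Tnfrsf11a), 2 of 17 by tissue (Tnfrsf9 and Tnfrsf11a), 5 of 21 against CD4 T cells (Tnfrsf9, Tnfrsf11a, Traf3, Tnfrsf14 and Tnfrsf1b) and 1 of 6 in female VAT against spleen (Traf4). Of the 16 calls in the lower direction none was. Without male VAT 1, 1, 2 and 6 of the higher calls by sex, by tissue and against CD4 T cells remained, and 3, 2 and 5 of the lower ones.

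**Figure D5:**
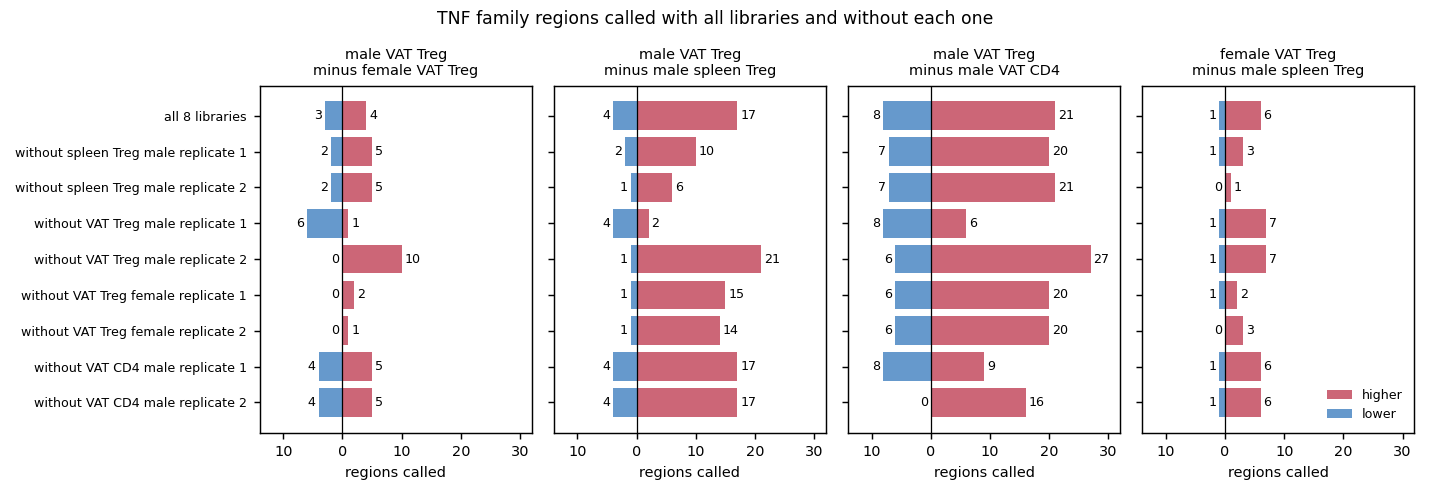
Number of member regions called higher (red, to the right) and lower (blue, to the left) in each comparison (panels), with all 8 libraries (top row) and with each library left out in turn (other rows). Higher calls fell to 1, 2 and 6 without male VAT 1 in the first 3 panels and rose to 10, 21 and 27 without male VAT 2.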

How the data were processed

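ATAC-seq of sorted CD4 T cells was measured in 8 libraries, 2 in each of 4 groups taken from the sample titles and labels. The titles of the spleen libraries name no sex, so their sex was taken from their labels. The authors deposited a table of raw counts per region and sample, used here as it stands, and per-library log2 CPM values, not used here. Per the submitters' processing notes, Subread 1.6.2, HOMER 4.9, featureCounts and limma and the GRCm38/mm10 build were used; their roles, and how regions were called, are not given in the sources used here, nor is whether region starts count from 0 or 1. The table's 62205 entries repeat a region for each gene it was assigned to, and were reduced to 46624 distinct regions; 112 mitochondrial or unplaced ones were left out. Region widths are end minus start. Gene positions and promoters came from RefSeq (GRCm38.p6). Counts carry no molecular identifiers, so depth covers counting error only.

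All 8 libraries entered 1 fit in edgeR 4.0.16 (R 4.3.3; TMM scaling, edgeR's filter on low counts by group, quasi-likelihood F test, 4 residual degrees of freedom), with p-values adjusted by Benjamini-Hochberg over 45709 regions; the script was tested on simulated data. The alternatives were DESeq2 size factors, TMM on regions under 1000 bp, DESeq2 1.42.0's Wald test, no filter, only the 2 groups compared, the replicate number as a block, and each library left out. The 48 members, their roles and the marker and pathway lists were chosen with earlier results of these data known. Every member with a called region was named; regions with the 6 smallest adjusted p per comparison and direction were given in all libraries; for a fixed set of main receptors, ligands and TRAFs the region of highest CPM was described whether called or not; other members were given by number of regions and range. Figures used matplotlib 3.10.9.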

Additional observations from a re-analysis of the deposited data

How the results depend on the processing

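The 64 calls were recomputed under 14 alternatives, which gave 896 values: 0 changed direction, 652 stayed under an adjusted p of 0.05 and 244 did not. Counts of member regions called higher and lower in male VAT Tregs moved by more than 1.5 times as follows. DESeq2's Wald test gave 1 and 1 by sex, 8 and 0 by tissue, 12 and 4 against CD4 T cells, and 2 and 0 in female VAT against spleen. Short-region scaling gave 8 higher by tissue, 11 and 14 against CD4 T cells, and 2 and 0 in female VAT against spleen. Fitting only the 2 groups compared gave 1 lower by tissue and 4 lower against CD4 T cells. With the replicate number as a block, 1 region was lower by tissue, and no other of these counts moved by that much. Under that block 13 of the 64 calls were lost, at adjusted p of at most 0.105, and these losses are not among those given beside each call. Correlations of same-numbered libraries between groups were 0.02, 0.02, -0.08, 0.07, -0.15 and -0.08, so the libraries were taken to share only a number and not a pairing. Leaving out each library in turn gave 1 to 10 higher and 0 to 6 lower by sex, 2 to 21 and 1 to 4 by tissue, 6 to 27 and 0 to 8 against CD4 T cells, and 1 to 7 and 0 to 1 in female VAT against spleen. Without CD4 library 2 none of the 8 regions lower than in CD4 T cells was called, and the cause was not tested. DESeq2 size factors and no filter on low counts left each count within 1.5 times. Where a library was left out, the lone library of its group was assumed to vary like the other groups. Depth limits the short regions most, several of which held under 10 counts in a library.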
